A study of Mus musculus with 6 samples.

Results

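The genes described here encode the machinery that starts and lengthens protein chains and that prepares transfer RNAs (tRNAs). They are the initiation factors (Eif), elongation factors (Eef), aminoacyl-tRNA synthetases with their scaffold proteins, tRNA and rRNA methyltransferases (Trmt, Nsun), pseudouridine synthases (Pus), Elongator subunits (Elp) and other tRNA enzymes. They were matched by gene symbol, in a choice made with earlier results of these data known. Of the 4162 genes in the deposited count table, 67 matched. The cells were activated CD4+ T cells from mouse spleen, with 3 libraries from UTX TCD mice, which lack UTX specifically in T cells, and 3 from WT mice. UTX, encoded by Kdm6a, is a demethylase that removes methyl groups from lysine 27 of histone H3. Naive cells of both genotypes were isolated magnetically and stimulated for 48 h by anti-CD3 coated on the plate together with dissolved anti-CD28. The label of the WT mice is B6.WT and that of the mutant mice B6.UTX TCD. The sources used here do not name the Cre driver, the deleted exons or the ages of the mice.

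A resting T cell makes little protein, and activation through the T cell receptor raises the supply of initiation factors, synthetases and modified tRNAs before the cell grows and divides. Translation begins when eIF2 brings the initiator tRNA to the small ribosomal subunit and eIF4F binds the mRNA cap. The synthetases charge each tRNA with its amino acid, and modification enzymes alter tRNA bases so that the molecule folds, lasts and decodes correctly. Kinases of eIF2 and eEF2 slow initiation and elongation, and proteins that bind eIF4E hold it away from the initiation complex.

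The table lists part of the transcriptome, and its fold changes leave a gap near 0, as a selection of genes on the genotype difference would; the rule of selection is not stated. Only 2 of 4118 tested genes had a log2 fold change within 0.1 of the emptiest point, which lay at 0.07. The 6 libraries held 8363326 to 10288306 counts in these genes. UTX TCD replicate 2 stood apart, with a chi-square per degree of freedom of 82.2 to 87.4 against the other UTX TCD libraries, where these differed from each other by 19.9. The biological coefficient of variation was 22.3% over the UTX TCD libraries, 13.25% without replicate 2 and 8.01% over the WT libraries. Kdm6a had 188, 207 and 179 CPM in UTX TCD libraries, against 286, 281 and 281 CPM in WT libraries (CPM, the share of the library's TMM-scaled count over listed genes, times 1000000). Its log2 fold change was -0.56 ± 0.09 (SE, edgeR adjusted p = 0.0029), and since the deleted exons are unknown the counts that remain check the labels only in part. Of the T cell markers looked for, Cd28, Lck and Thy1 had a row and summed to 3025 to 3291 CPM in UTX TCD and 3212 to 3407 CPM in WT libraries. At an edgeR adjusted p under 0.05, 1 of these 3 was higher and 1 lower, so the sum hides changes in both directions. Cd8b1, a CD8 T cell marker, had 31.5 to 56.2 CPM in UTX TCD and 11.6 to 14.5 CPM in WT libraries, and 3 gamma delta T cell receptor genes summed to 9.28 to 12.8 CPM in UTX TCD and 3.27 to 7.04 CPM in WT libraries. The NK cell markers Klrd1 and Eomes summed to 25.7 to 53.5 CPM in UTX TCD and 23.0 to 59.4 CPM in WT libraries. Higher at that threshold were Cd8b1, 2 of the gamma delta genes and 1 of the NK cell markers, and 0 were lower. Of all tested genes 41.1% were higher. The part of such cells in the results was not tested. Markers of B cells, myeloid cells, dendritic cells, red cells and platelets were not analysed here. In bulk RNA, fewer cells of a type and less RNA per cell cannot be told apart.

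Most of the 67 listed translation and tRNA genes had slightly lower values in UTX TCD cells, though 39 of them did not pass the test. Genes of these families without a row are not covered. All 67 passed the filter on low counts. A log2 fold change below 0 was found in 61 and above 0 in 6, where 53.4% of all tested genes were below 0. In the test 23 genes (34.3%) were lower and 5 (7.46%) were higher at an adjusted p under 0.05 (edgeR quasi-likelihood test, Benjamini-Hochberg adjustment over the 4118 tested genes), while 39 did not pass. Over all tested genes 27.0% were lower and 41.1% were higher. The median log2 fold change of the 67 genes was -0.26 and that of all tested genes -0.15. Their changes were also smaller, with a median absolute log2 fold change of 0.28 for the 67 genes and 0.45 for all tested genes. In 52 genes each UTX TCD library lay below each WT library, in 5 each lay above, and in 10 the groups overlapped. Of all tested genes 44.0% lay below and 41.8% above, and groups apart in a single gene are to be read beside these shares. Between -0.4 and -0.1 on the log2 scale lay 54 of the 67 genes (80.6%) and 34.0% of all tested genes.

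**Figure D1:**
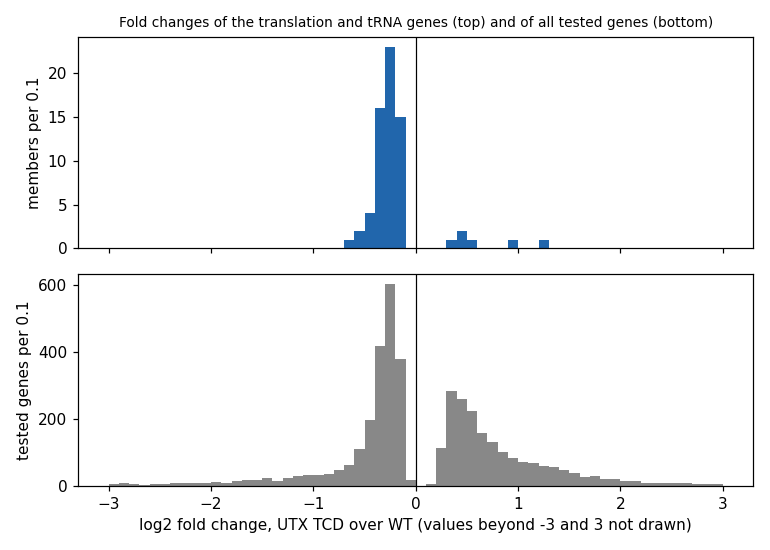
Distribution of log2 fold changes (UTX TCD over WT, horizontal axis, bins of 0.1) for the 67 translation and tRNA genes in the upper panel and for the 4118 tested genes of the table in the lower panel; vertical axes count genes. The 67 genes lie mostly between -0.4 and -0.1, in the lower of the 2 peaks that the table has on either side of an almost empty point at 0.07.

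The calls depended on scaling and on single libraries. Upper-quartile scaling gave 5 genes higher and 11 lower. Gap-centred scaling, which puts the emptiest point at 0, gave 5 and 53, where the 2 scalings split all tested genes into 1742 and 725, and 1569 and 1806, against 1692 and 1111 with TMM. Leaving out UTX TCD replicate 1 gave 6 genes higher and 43 lower, at a median log2 fold change of -0.31, where all tested genes gave 1824 higher and 1428 lower at a median of -0.17. Leaving out UTX TCD replicate 2 gave 5 and 43, at a median of -0.19, where all tested genes gave 1605 and 1458 at a median of -0.10. Without WT replicate 1 or 2, edgeR called 0 genes higher and 1 lower, and at an unadjusted p under 0.05 it called 5 higher and 8 lower without WT replicate 1 and 3 and 14 without WT replicate 2. For unadjusted counts, here and below, no count over all tested genes is given. Over all tested genes the adjusted counts were 812 higher and 402 lower without WT replicate 1, and 730 and 351 without WT replicate 2. Without WT replicate 3 they were 2 and 5 among the 67 genes and 1195 and 544 among all tested genes. Eef1e1 is the only gene of the 67 whose call held in each of these 6 fits. The direction of none of the 67 genes changed in these fits, nor with the other scalings, DESeq2, no filter or the replicate block.

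UTX TCD replicate 2 had the lowest value of 50 of the 67 genes among all 6 libraries, where it had the lowest value of 38.2% of all tested genes. The median difference from the WT mean over the 67 genes was -0.16 (log2 CPM) in UTX TCD replicate 1, -0.40 in replicate 2 and -0.19 in replicate 3. The 67 genes together took 4.53%, 4.08% and 4.62% of the listed counts in the UTX TCD libraries, against 4.83%, 4.76% and 4.72% in the WT libraries. Over all genes these medians were -0.05, -0.14 and -0.09 in UTX TCD replicates 1, 2 and 3. The heat map by library shows the low values of UTX TCD replicate 2 as a deeper blue column.

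**Figure D2:**
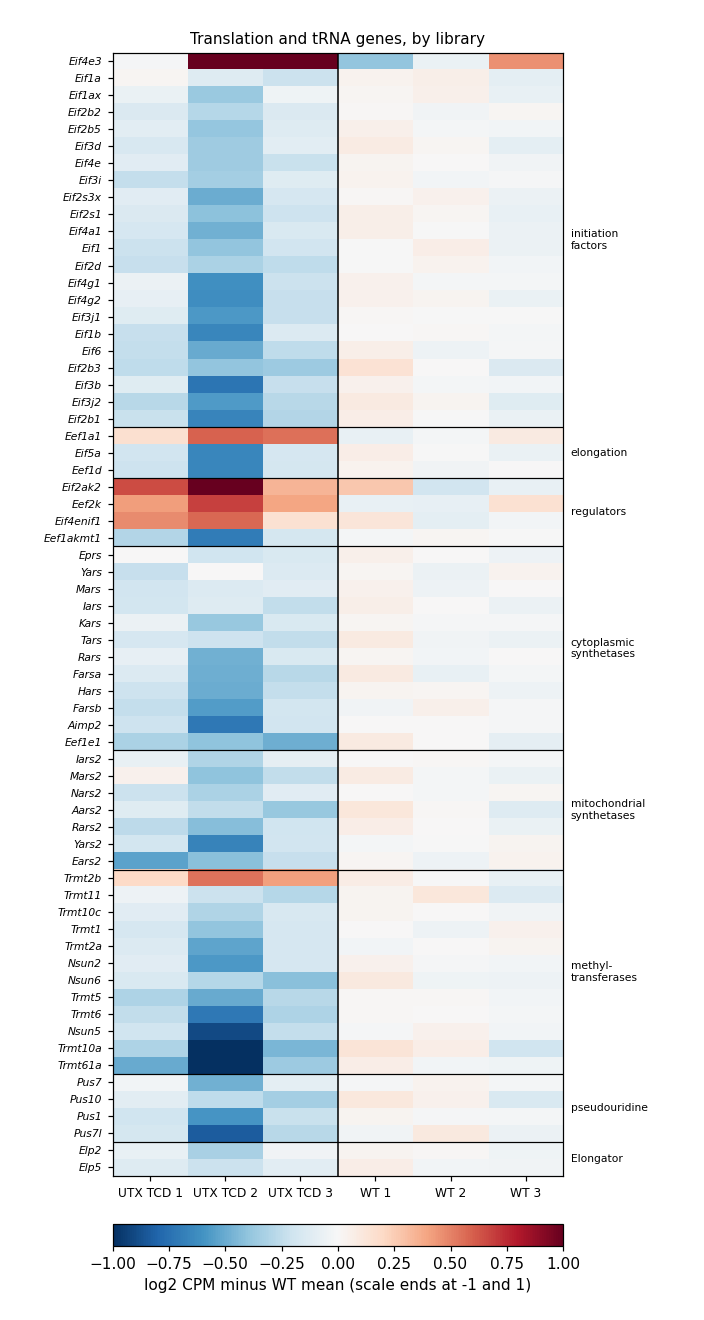
Each row is 1 of 66 of the 67 genes, grouped by role and ordered by fold change, and each column is 1 library; the colour is log2 CPM minus the mean of the 3 WT libraries, blue for lower and red for higher, with the scale ending at -1 and 1. Most rows are blue in the 3 UTX TCD columns, deepest in UTX TCD 2, while Eif2ak2, Eef2k, Eif4enif1, Eef1a1 and Trmt2b are red in all 3.

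Initiation factors were the largest group, and 8 of their 22 genes fell, 0 rose and 14 did not pass (median -0.26). Of all tested genes, 27.0% were lower and 41.1% were higher. At an unadjusted p under 0.05 edgeR gave 13 lower and 1 higher, and DESeq2 gave 6 lower and 1 higher after adjustment. Together they took 2.03%, 1.56% and 1.95% of the listed counts in UTX TCD libraries, against 2.23%, 2.20% and 2.14% in WT libraries. The edgeR fits lacking WT replicates 1, 2 and 3 called 0, 0 and 2 lower, and 2, 5 and 7 at an unadjusted p under 0.05. Those lacking UTX TCD replicates 1 and 2 called 15 and 16 lower, and Eif4e3 was then also higher without replicate 1. Among all tested genes these fits called 1428 of 4141 and 1458 of 4135 lower. The fits lacking WT replicates 1, 2 and 3 called 402, 351 and 544 of all tested genes lower.

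eIF2B is the exchange factor that reloads eIF2 with GTP, and it is the target through which phosphorylated eIF2 lowers initiation. Eif2b1, its alpha subunit, had 222, 164 and 212.5 CPM in UTX TCD libraries, against 272, 259 and 248.5 CPM in WT libraries. The groups did not overlap and replicate 2 was the lowest of the UTX TCD libraries. It fell by 0.38 ± 0.12 on the log2 scale (SE, edgeR adjusted p = 0.029). Eif2b3, the gamma subunit, had 127, 115 and 118 CPM in UTX TCD libraries, against 167, 152 and 137 CPM in WT libraries. It fell by 0.34 ± 0.10 on the log2 scale (edgeR adjusted p = 0.022), and here the 3 UTX TCD libraries lay close together. Eif2b2 and the catalytic epsilon subunit gene Eif2b5 did not pass, at -0.19 ± 0.08 and -0.20 ± 0.10, and the delta subunit was not analysed here. Of eIF2 itself, Eif2s1, the alpha subunit that the stress kinases phosphorylate, averaged 647 ± 60.5 CPM in UTX TCD and 770 ± 35.8 CPM in WT libraries (SD, n = 3 each; log2 fold change -0.25 ± 0.09, edgeR adjusted p = 0.044). Its gamma partner Eif2s3x, on chromosome X, was at nearly the same value, -0.25 ± 0.11, and did not pass (edgeR adjusted p = 0.069). Of the 50-base words of Eif2s3x, 34.6% also occur in another gene.

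The eIF4F complex joins the cap-binding protein eIF4E, the helicase eIF4A and the scaffold eIF4G. Of the 5 genes of this group, 0 passed in edgeR, where 2 lower and 1 higher had an unadjusted p under 0.05. Eif4e had 342, 289 and 316 CPM in UTX TCD libraries, against 377, 371 and 360 CPM in WT libraries. Its UTX TCD libraries all lay below the WT libraries, but at -0.23 ± 0.09 it missed the threshold (edgeR adjusted p = 0.051). Eif4a1 averaged 1479 ± 181 CPM in UTX TCD and 1772 ± 72.8 CPM in WT libraries (-0.26 ± 0.11, edgeR adjusted p = 0.057), and Eif4g1 averaged 3648 ± 696 CPM in UTX TCD and 4422 ± 112 CPM in WT libraries (-0.28 ± 0.14, edgeR adjusted p = 0.097). Of the 50-base words of Eif4a1, 28.4% also occur in other genes. Without UTX TCD replicate 2, Eif4e and Eif4a1 passed, at -0.17 (edgeR adjusted p = 0.030) and -0.17 (edgeR adjusted p = 0.026), and Eif4g1 did not (-0.14, edgeR adjusted p = 0.079). Eif4g2, a related scaffold that lacks the eIF4E-binding part, was at -0.29 ± 0.14 and did not pass. Eif4e3, a further cap-binding family member, was the exception in direction, with 45.2, 94.5 and 131 CPM in UTX TCD libraries, against 34.7, 43.5 and 62.5 CPM in WT libraries. Its groups overlapped and it did not pass with edgeR (0.95 ± 0.37, adjusted p = 0.052), while DESeq2 gave an adjusted p of 0.012.

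The promoters of the 3 eIF4F genes are shown because each holds an E-box, the CACGTG motif that MYC and related factors bind, in the 250 bases before an annotated start. The sequences are from RefSeq (GRCm38.p6), run 5′ to 3′ on the gene's strand and end just before the start, and capitals mark the motif. They lie at chr3:138527018-138527267 on the plus strand, chr11:69672424-69672673 on the minus strand and chr16:20672477-20672726 on the plus strand.
Eif4e: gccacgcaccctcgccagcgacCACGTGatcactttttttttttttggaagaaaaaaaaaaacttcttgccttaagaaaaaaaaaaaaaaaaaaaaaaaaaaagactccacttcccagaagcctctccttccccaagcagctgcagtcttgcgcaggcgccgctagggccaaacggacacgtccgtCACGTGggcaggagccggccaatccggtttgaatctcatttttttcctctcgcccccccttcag
Eif4a1: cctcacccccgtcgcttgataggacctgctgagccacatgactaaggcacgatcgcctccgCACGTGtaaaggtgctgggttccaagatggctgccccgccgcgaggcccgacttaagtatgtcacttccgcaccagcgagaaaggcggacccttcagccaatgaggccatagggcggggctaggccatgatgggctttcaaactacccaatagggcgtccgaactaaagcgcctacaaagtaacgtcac
Eif4g1: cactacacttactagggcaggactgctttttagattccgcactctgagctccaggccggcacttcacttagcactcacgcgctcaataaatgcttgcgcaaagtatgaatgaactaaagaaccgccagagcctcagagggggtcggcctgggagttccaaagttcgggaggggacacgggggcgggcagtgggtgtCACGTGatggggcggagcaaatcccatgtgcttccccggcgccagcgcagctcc

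Of the 67 genes, 50 matched a RefSeq promoter window, and 9 of these (18%) held CACGTG within 250 bases before a start, where 6.86% of all 27025 genes with a window and 10.7% of the other tested genes did. The search covered both strands, which are the same for this palindrome, and every window of a gene with several starts. Eif4e had the motif at 228 and 64 bases before the start whose window is shown. The window of its other annotated start (chr3:138525941-138526190) held 0. The others with it were Eif5a, Eif1b, Eef2k, Iars, Farsb and Trmt10a. The core TGATGNAA, which ATF4 and its partners bind in promoters of amino acid genes, was in 4 of the 50 (8%), against 3.91% of all genes and 2.2% of the other tested genes, searched on both strands. It was found in windows of Eef2k, Eif2s3x, Pus7 and Tars, and no window held both motifs. Of the 14 genes called lower that have a window, 2 held CACGTG and 1 held TGATGNAA. These matches describe letters in a window, not binding.

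eIF3 binds the small subunit in initiation, and 2 of its 5 listed genes fell, where 27.0% of all tested genes were lower. Eif3i averaged 658 ± 49.2 CPM in UTX TCD and 772 ± 17.9 CPM in WT libraries (-0.23 ± 0.08, edgeR adjusted p = 0.040). Eif3j2 fell by 0.37 ± 0.12 (edgeR adjusted p = 0.025), but 91.8% of its 50-base words also occur in another gene, nearly all in Eif3j1, so reads of the pair may be misplaced between them. Eif3j1 was at -0.30 ± 0.12 (edgeR adjusted p = 0.056). Eif3b and Eif3d were at -0.34 ± 0.15 and -0.21 ± 0.10 and did not pass, and 43.3% of the exon bases of Eif3d are overlapped by an opposite-strand transcript.

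Further initiation genes act at the start site or on the large subunit. Eif1, which guards start codon choice, averaged 602 ± 44.7 CPM in UTX TCD and 722 ± 31.0 CPM in WT libraries (-0.26 ± 0.09, edgeR adjusted p = 0.030). Of its 50-base words, 19.2% also occur in other genes. Its paralog Eif1b was at -0.32 ± 0.13 (edgeR adjusted p = 0.056). Eif1a and Eif1ax, which encode forms of eIF1A, were at -0.11 ± 0.09 and -0.15 ± 0.11 with overlapping groups. Eif2d, which can deliver tRNA to the ribosome without eIF2, had 262, 247 and 257 CPM in UTX TCD libraries, against 306, 315 and 302 CPM in WT libraries. Its libraries varied little within a genotype, and it fell by 0.27 ± 0.08 (edgeR adjusted p = 0.019). Eif6, which keeps the large subunit from joining too early and is needed to make it, had 406, 338 and 402 CPM in UTX TCD libraries, against 501, 465 and 476 CPM in WT libraries (-0.33 ± 0.10, edgeR adjusted p = 0.021).

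Of 3 elongation factor genes 1 rose, 0 fell and 2 did not pass, where 41.1% of all tested genes were higher and 27.0% lower. Eef1a1, which carries charged tRNA to the ribosome, had 6106, 8212 and 7994 CPM in UTX TCD libraries, against 5199, 5403 and 5820 CPM in WT libraries. All 3 UTX TCD libraries were above the WT libraries, with replicate 1 nearest to them. It rose by 0.44 ± 0.13 on the log2 scale (edgeR adjusted p = 0.021), and the call was lost without UTX TCD replicate 3, WT replicate 1 or WT replicate 2, with a fold change of 0.36 to 0.57 over all 6 fits with a library left out. It lies on chromosome 9 (chr9:78478449-78489151, GRCm38), and 39.4% of its 50-base words also occur in other genes, among them its many pseudogenes. Per kilobase of exon it was the most abundant of the 67 genes, at a level of 2983 CPM in UTX TCD and 2196 CPM in WT libraries, followed by Eif5a at 1449 CPM in UTX TCD and 1810 CPM in WT libraries.

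Eif5a, which helps the ribosome through stretches that stall it and carries the modified lysine hypusine, had 3775, 2735 and 3823 CPM in UTX TCD libraries, against 4512, 4285 and 4114 CPM in WT libraries. The groups did not overlap, but the gene did not pass at -0.32 ± 0.14 (edgeR adjusted p = 0.063). Without UTX TCD replicate 2 it passed at a smaller fold change, -0.19 (edgeR adjusted p = 0.024). Eef1d, a subunit of the exchange factor of eEF1A, was at -0.33 ± 0.13 (edgeR adjusted p = 0.052), and without UTX TCD replicate 2 at -0.20 (edgeR adjusted p = 0.011). Eef2 was not analysed here.

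Of the 4 genes whose products act on translation factors, Eif2ak2, Eef2k and Eif4enif1 rose and Eef1akmt1 fell. Rises made up 41.1% and falls 27.0% of all tested genes. They took 0.150%, 0.198% and 0.126% of the listed counts in UTX TCD libraries, against 0.119%, 0.104% and 0.110% in WT libraries. With WT replicates 1, 2 and 3 left out in turn, 0, 0 and 1 of them were higher in edgeR and 0 lower. Over all tested genes 812, 730 and 1195 were then higher and 402, 351 and 544 lower.

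Eif2ak2 encodes PKR, the interferon-induced kinase that phosphorylates eIF2 alpha when it binds double-stranded RNA. It had 180, 525 and 145 CPM in UTX TCD libraries, against 138, 101 and 109 CPM in WT libraries. Replicate 2 was far above the other UTX TCD libraries, and replicate 3 only just above the highest WT library. It rose by 1.29 ± 0.45 on the log2 scale (edgeR adjusted p = 0.037), and by 0.48 without UTX TCD replicate 2 (edgeR adjusted p = 0.030). Its call was lost without any 1 of the WT libraries.

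Eef2k encodes the kinase that inactivates eEF2 and so slows elongation. It had 47.7, 57.2 and 47.0 CPM in UTX TCD libraries, against 34.0, 33.7 and 39.6 CPM in WT libraries. The groups did not overlap, and the log2 fold change was 0.50 ± 0.14 (edgeR adjusted p = 0.019), with the call lost without WT replicate 1 or 2. Eif4enif1 encodes 4E-T, which binds eIF4E and takes it away from eIF4G. It had 1203, 1287 and 964 CPM in UTX TCD libraries, against 942, 809 and 851 CPM in WT libraries. UTX TCD replicate 3 lay only just above WT replicate 1, and the log2 fold change was 0.41 ± 0.12 (edgeR adjusted p = 0.023). Eef1akmt1, a lysine methyltransferase of eEF1A, fell to 79.9 ± 14.6 CPM in UTX TCD libraries, against 104 ± 1.34 CPM in WT libraries (-0.37 ± 0.14, edgeR adjusted p = 0.044), and was at -0.24 without UTX TCD replicate 2. The eIF4E-binding protein genes and the other eIF2 kinase genes were not analysed here.

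**Figure D3:**
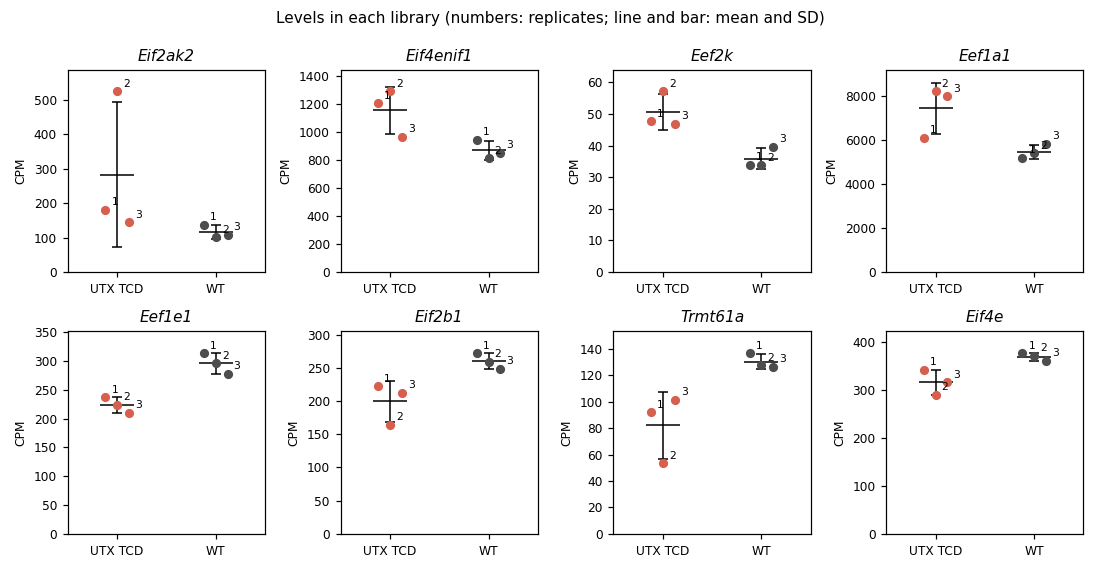
CPM in each library for 8 genes, with UTX TCD left of WT in each panel; points are libraries with their replicate numbers, and the line and bar are the mean and SD of 3 libraries. Eif2ak2 reaches 525 CPM in UTX TCD replicate 2 and 145 to 180 CPM in the other UTX TCD libraries, and Eef1e1 lies at 211 to 237 CPM in UTX TCD and 278 to 314 CPM in WT libraries.

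Cytoplasmic aminoacyl-tRNA synthetase genes and their scaffold all had a fold change below 0, and 5 of 12 fell (median -0.22). Among all tested genes 53.4% had a fold change below 0, and 27.0% passed as lower. They took 0.761%, 0.703% and 0.739% of the listed counts in UTX TCD libraries, against 0.844%, 0.823% and 0.817% in WT libraries. Each fit that lacked a WT library called 1 of them lower, and those lacking UTX TCD replicates 1 and 2 called 8 and 10. Among all tested genes, 402, 351 and 544 were lower without WT replicates 1, 2 and 3. Without UTX TCD replicates 1 and 2, 1428 of 4141 and 1458 of 4135 were lower.

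Eef1e1 encodes a scaffold protein of the multi-synthetase complex, which bundles several synthetases in the cytoplasm. It had 237, 224 and 211 CPM in UTX TCD libraries, against 314, 296 and 278 CPM in WT libraries. The groups stood apart with little spread, where 44.0% of all tested genes lay wholly below WT. The gene fell by 0.40 ± 0.09 on the log2 scale (edgeR adjusted p = 0.0090). It ranged from -0.45 to -0.36 over the fits with a library left out. It was the only 1 of 7 listed genes of that complex to pass. Aimp2, another scaffold protein, had 117, 82.5 and 119 CPM in UTX TCD libraries, against 136, 136 and 135 CPM in WT libraries. It missed the threshold at -0.35 ± 0.14 (edgeR adjusted p = 0.055) and passed without UTX TCD replicate 2 at -0.21 (edgeR adjusted p = 0.018); 29.4% of its exon bases are overlapped by Eif2ak1 on the opposite strand.

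The listed synthetases that belong to the complex did not pass. Eprs, which joins glutamate and proline to their tRNAs, averaged 1547 ± 119 CPM in UTX TCD and 1674 ± 61.1 CPM in WT libraries, with overlapping groups (-0.11 ± 0.09, edgeR adjusted p = 0.23). Mars, Iars, Kars and Rars, for methionine, isoleucine, lysine and arginine, lay at log2 fold changes of -0.15, -0.19, -0.19 and -0.23, and none passed. Whether these differ from the synthetases outside the complex was not tested. Of the 5 listed outside it, 4 fell, where 27.0% of all tested genes were lower. At an unadjusted p under 0.05 edgeR gave 4 lower outside the complex and 3 of 7 in it. After adjustment, RLE scaling gave 1 outside and 1 inside, and DESeq2 gave 2 and 1. Without any 1 WT library, 0 were lower outside and 1 inside. The grouping was set after values were seen.

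Farsa and Farsb encode the alpha and beta subunits of phenylalanyl-tRNA synthetase, and both fell by a like amount. Farsa averaged 293 ± 34.9 CPM in UTX TCD and 360 ± 21.1 CPM in WT libraries (-0.30 ± 0.11, edgeR adjusted p = 0.041). Farsb had 413, 331 and 429 CPM in UTX TCD libraries, against 475, 505 and 483 CPM in WT libraries (-0.32 ± 0.11, edgeR adjusted p = 0.035). Hars, for histidine, had 470, 384 and 460 CPM in UTX TCD libraries, against 552, 551 and 525 CPM in WT libraries (-0.31 ± 0.10, edgeR adjusted p = 0.027), and Tars, for threonine, was at -0.21 ± 0.08 (edgeR adjusted p = 0.046). Yars, for tyrosine, did not pass (-0.12 ± 0.09), with overlapping groups. The Farsb promoter is shown as the synthetase gene called lower that holds an E-box, at 39 bases before its start (chr1:78488898-78489147 on the minus strand, GRCm38.p6, capitals mark the motif).
Farsb: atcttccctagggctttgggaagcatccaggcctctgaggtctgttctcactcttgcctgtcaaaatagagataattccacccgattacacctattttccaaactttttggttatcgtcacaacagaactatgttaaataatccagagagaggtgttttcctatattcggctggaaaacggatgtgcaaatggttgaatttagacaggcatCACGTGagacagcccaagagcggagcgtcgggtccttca

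Mitochondrial synthetases have their own nuclear genes, and 2 of 7 fell, 0 rose and 5 did not pass (median -0.25), where 27.0% of all tested genes were lower, with 0 higher also at an unadjusted p under 0.05 and in DESeq2. Ears2, for glutamate, had 33.4, 36.0 and 41.0 CPM in UTX TCD libraries, against 48.8, 46.6 and 49.4 CPM in WT libraries (-0.39 ± 0.13, edgeR adjusted p = 0.030). Rars2, for arginine, had 141, 126 and 147 CPM in UTX TCD libraries, against 177, 169 and 161 CPM in WT libraries (-0.29 ± 0.09, edgeR adjusted p = 0.026). Both pairs of groups were separate, where 44.0% of all tested genes lay wholly below WT. Both calls were lost without any 1 WT library, with Ears2 also lost without UTX TCD replicate 1. Yars2, Aars2, Nars2, Mars2 and Iars2 lay between -0.33 and -0.15. Iars2, the most abundant by CPM, averaged 425 ± 36.0 CPM in UTX TCD and 472 ± 5.21 CPM in WT libraries (edgeR adjusted p = 0.14). Opposite-strand exons overlap 24.2% of its exon bases.

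**Figure D4:**
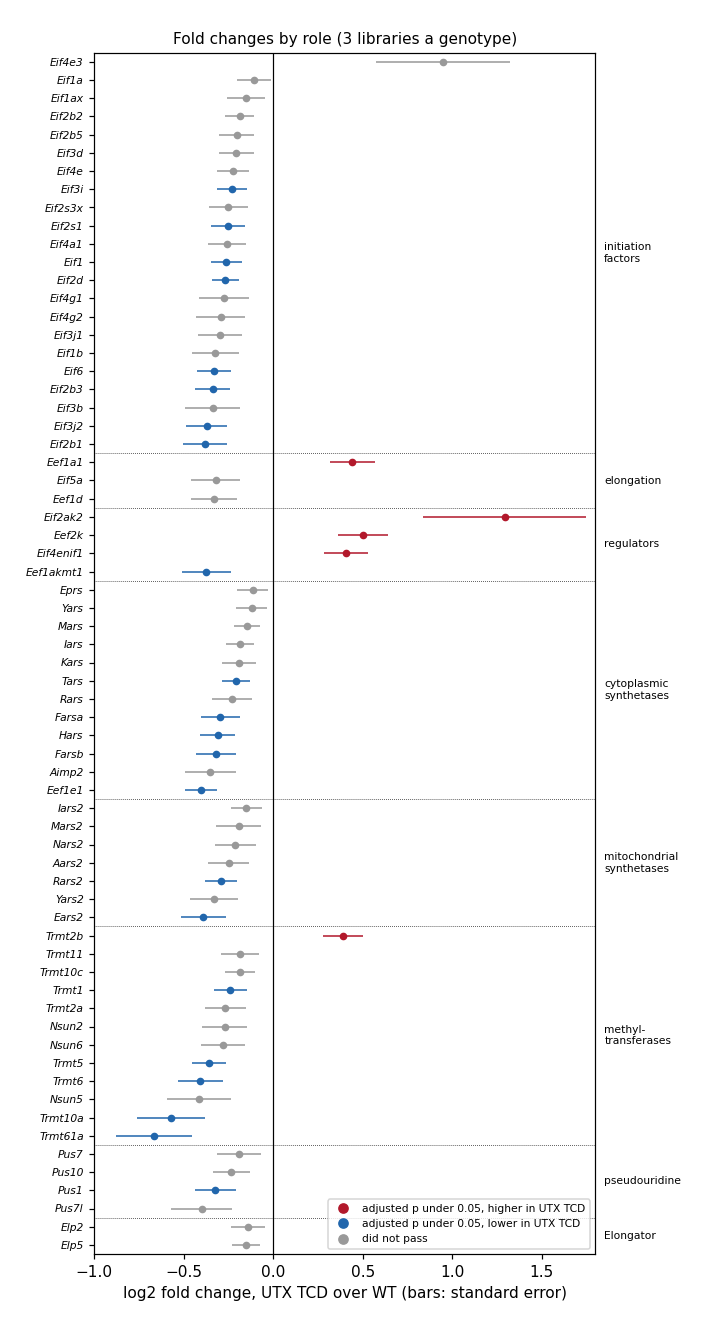
Log2 fold change (UTX TCD over WT) of 66 of the 67 genes with its standard error, grouped by role; blue points were lower and red points higher at an edgeR adjusted p under 0.05, and grey points did not pass. The blue and grey points lie from -0.67 for Trmt61a to -0.11 for Eif1a, except the grey point of Eif4e3 at 0.95, and the 5 red points lie at 0.39 to 1.29.

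The largest falls among the 67 genes were those of the methyltransferase genes Trmt61a and Trmt10a. Of 12 methyltransferase genes, 5 fell, 1 rose and 6 did not pass (median -0.28). Of all tested genes, 27.0% were lower and 41.1% were higher. The lower methyltransferase genes numbered 0, 0 and 2 without WT replicates 1, 2 and 3, and 10 and 8 without UTX TCD replicates 1 and 2. In the same fits 402, 351 and 544, and 1428 of 4141 and 1458 of 4135, of all tested genes were lower. Trmt61a and Trmt6 encode the catalytic and the binding subunit of the enzyme that methylates an adenosine in the T loop of tRNA. Trmt61a had 91.8, 53.3 and 101 CPM in UTX TCD libraries, against 137, 128 and 127 CPM in WT libraries. Replicate 2 was the lowest by far. The gene fell by 0.67 ± 0.22 on the log2 scale (edgeR adjusted p = 0.029), and by 0.44 without that library (edgeR adjusted p = 0.0042). Trmt6 had 257, 186 and 246 CPM in UTX TCD libraries, against 308, 306 and 300 CPM in WT libraries (-0.41 ± 0.13, edgeR adjusted p = 0.026). Both subunits were below WT in all 3 UTX TCD libraries, as were 44.0% of all tested genes.

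Trmt10a and Trmt5 methylate a guanosine, next to the acceptor stem and beside the anticodon. Trmt10a had 70.4, 43.0 and 63.4 CPM in UTX TCD libraries, against 95.4, 91.4 and 75.8 CPM in WT libraries (-0.57 ± 0.19, edgeR adjusted p = 0.031). Trmt5 had 88.7, 77.3 and 90.3 CPM in UTX TCD libraries, against 110, 111 and 108 CPM in WT libraries (-0.36 ± 0.09, edgeR adjusted p = 0.016). WT libraries of Trmt5 lay within a few CPM of each other, and both calls were lost without WT replicate 1 or 2. Trmt1, a guanosine dimethyltransferase, was at -0.24 ± 0.09 (edgeR adjusted p = 0.047).

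Trmt2b, a mitochondrial uridine methyltransferase, rose. It had 89.7, 114 and 104 CPM in UTX TCD libraries, against 82.3, 77.9 and 74.4 CPM in WT libraries (0.39 ± 0.11, edgeR adjusted p = 0.021), and the call was lost without any 1 WT library. Its cytoplasmic paralog Trmt2a was at -0.27 ± 0.11 (edgeR adjusted p = 0.063), with UTX TCD libraries all below WT libraries. Nsun2, the main cytosine methyltransferase of tRNA and the most abundant of the group by CPM, averaged 1206 ± 200 CPM in UTX TCD and 1456 ± 36.4 CPM in WT libraries and did not pass (-0.27 ± 0.13, edgeR adjusted p = 0.079). Nsun5, which acts on rRNA, and Nsun6 were at -0.42 ± 0.18 and -0.28 ± 0.12. Opposite-strand exons overlap 16.5% of the exon bases of Trmt2a and 15.4% of those of Nsun5. Trmt11 and Trmt10c, a part of mitochondrial RNase P, were at -0.18 ± 0.11 and -0.19 ± 0.08 and did not pass.

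Among pseudouridine synthases, which turn uridine into its isomer, 1 of 4 fell, where 27.0% of all tested genes were lower. Pus1 had 189, 145 and 186 CPM in UTX TCD libraries, against 221, 215 and 215 CPM in WT libraries (-0.32 ± 0.11, edgeR adjusted p = 0.038), lost without any 1 WT library. Antisense or overlapping transcripts on the opposite strand cover 30.1% of its exon bases. Pus7, the most abundant by CPM, averaged 282 ± 45.2 CPM in UTX TCD and 322 ± 6.16 CPM in WT libraries (-0.19 ± 0.12, edgeR adjusted p = 0.17), and Pus10 and Pus7l were at -0.23 ± 0.10 and -0.40 ± 0.17. Leaving out UTX TCD replicate 2 put Pus7 at -0.07 (edgeR adjusted p = 0.22) and Pus7l at -0.23, where it passed (edgeR adjusted p = 0.041). Elongator adds side chains to wobble uridines, and its listed subunits Elp2 and Elp5 did not pass, at -0.14 ± 0.10 and -0.15 ± 0.08.

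Other genes of the same processes were counted in 6 lists, to be read beside the 41.1% of all tested genes that were higher and the 27.0% that were lower. With WT replicates 1, 2 and 3 left out, all tested genes gave 812, 730 and 1195 higher and 402, 351 and 544 lower. Without UTX TCD replicates 1, 2 and 3 they gave 1824, 1605 and 1488 higher and 1428, 1458 and 927 lower. Among other tRNA modification enzymes 11 of 24 tested genes fell and 1 rose (median -0.29). Dus2, a dihydrouridine synthase, fell to 45.9 ± 2.05 CPM in UTX TCD libraries, against 62.9 ± 1.46 CPM in WT libraries (-0.45 ± 0.10, edgeR adjusted p = 0.010), and Yrdc, which starts threonylcarbamoyl modification, was at -0.38 ± 0.10 (edgeR adjusted p = 0.014). Mettl8, a cytosine methyltransferase of mitochondrial tRNA, rose to 91.6 ± 19.3 CPM in UTX TCD libraries, against 50.8 ± 6.34 CPM in WT libraries (0.85 ± 0.17, edgeR adjusted p = 0.0071). Its lower genes numbered 0, 2 and 4 when WT replicates 1, 2 and 3 were left out.

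In tRNA processing, ligation and export, which here includes RNA polymerase III, 7 of 21 fell and 2 rose (median -0.22). Polr3d, a polymerase III subunit, fell to 112 ± 21.4 CPM in UTX TCD libraries, against 167 ± 10.3 CPM in WT libraries (-0.58 ± 0.14, edgeR adjusted p = 0.013), and Rpp38, a subunit of RNase P, was at -0.59 ± 0.15 (edgeR adjusted p = 0.014). Maf1, the repressor of polymerase III, rose to 168 ± 15.1 CPM in UTX TCD libraries, against 132 ± 8.40 CPM in WT libraries (0.35 ± 0.10, edgeR adjusted p = 0.019). Lower members numbered 0, 1 and 2 and higher members 0, 0 and 1 without WT replicates 1, 2 and 3, and the fits lacking UTX TCD replicates 1 and 3 called 12 and 4 lower.

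Of 15 termination, recycling and other cytoplasmic translation factors, 6 fell and 3 rose (median -0.24). Paip2, which binds poly(A)-binding protein and inhibits translation, rose to 483 ± 28.9 CPM in UTX TCD libraries, against 366 ± 8.87 CPM in WT libraries (0.40 ± 0.08, edgeR adjusted p = 0.0071), and Gtpbp2, a ribosome rescue factor, was at 0.68 ± 0.18 (edgeR adjusted p = 0.018), and at 0.42 without UTX TCD replicate 2. Pabpc4, a poly(A)-binding protein, fell to 465 ± 70.6 CPM in UTX TCD libraries, against 637 ± 28.1 CPM in WT libraries (-0.46 ± 0.12, edgeR adjusted p = 0.016). Without WT replicates 1, 2 and 3 the higher members were 2, 1 and 2 and the lower members 0, 0 and 1. Leaving out UTX TCD replicates 1 and 3 in turn gave 11 and 3 lower. Of 4 mitochondrial translation factors 3 fell (median -0.34), Gatb by 0.39 ± 0.11, Tufm by 0.31 ± 0.09 and Gfm1 by 0.38 ± 0.13 (edgeR adjusted p = 0.020, 0.025 and 0.034). All 3 calls were lost in each fit that lacked a WT library, and 2 were kept without UTX TCD replicate 3. Gfm1 was at -0.25 when UTX TCD replicate 2 was left out.

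The mTORC1 kinase drives translation when amino acids and growth signals are present, and 3 of 9 tested genes of its pathway rose and 1 fell (median -0.18), where 41.1% of all tested genes were higher. Sesn3, a sestrin that restrains mTORC1, rose to 845 ± 118 CPM in UTX TCD libraries, against 393 ± 24.4 CPM in WT libraries (1.10 ± 0.12, edgeR adjusted p = 0.0010). Sesn1, a further sestrin, rose by 0.75 ± 0.15 (edgeR adjusted p = 0.0074) and Rragd, a Rag GTPase, by 1.49 ± 0.20 (edgeR adjusted p = 0.0023). These 3 calls held whichever library was left out. Tbc1d7, a subunit of the TSC complex named here after its value was seen, fell by 0.47 ± 0.12 (edgeR adjusted p = 0.014). Its lower genes were 0 when WT replicate 1 or 2 was left out, and 2 and 5 in the fits lacking UTX TCD replicates 1 and 2.

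The integrated stress response, which eIF2 kinases start, had 3 higher and 0 lower of 7 tested genes (median 0.53), a share higher that is close to the 41.1% of all tested genes. The transcription factor genes Cebpg and Ddit3 rose by 0.53 ± 0.14 and 1.06 ± 0.37 (edgeR adjusted p = 0.018 and 0.035), and Vldlr, a lipoprotein receptor gene, by 1.49 ± 0.44 (edgeR adjusted p = 0.022). Without UTX TCD replicate 2 these values were 0.33 for Cebpg, 0.45 for Ddit3 and 0.88 for Vldlr, all still called by edgeR. Atf4, the central factor of this response, had 752, 1039 and 750.4 CPM in UTX TCD libraries, against 1004, 969 and 981 CPM in WT libraries. UTX TCD replicate 2 lay above the WT libraries and the other UTX TCD libraries below them, and the gene did not pass (-0.22 ± 0.13, edgeR adjusted p = 0.15). The 3 calls were lost in each fit that lacked a WT library, and leaving out UTX TCD replicate 2 gave 3 higher and 2 lower at a median of 0.33. The lower genes in that fit were Atf4, at -0.40 (edgeR adjusted p = 0.0013), and Phgdh, an enzyme of serine synthesis named after its value was seen, at -0.23 (edgeR adjusted p = 0.010).

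**Figure D5:**
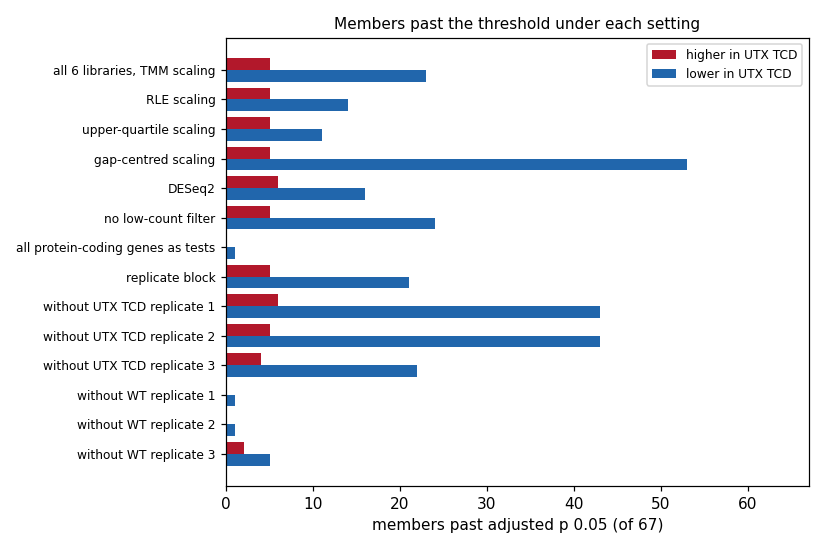
Number of the 67 genes past an edgeR adjusted p of 0.05 (DESeq2 in its own row) under each setting, higher in red and lower in blue. Genes called lower number 23 with all 6 libraries and TMM scaling, 1 when WT replicate 1 or 2 is left out, 43 when UTX TCD replicate 1 or 2 is left out and 53 under gap-centred scaling, while genes called higher stay between 0 and 6.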

How the data were processed

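Counts of reads per gene for 6 libraries, raw and with no normalization, were deposited by the authors. The submitters' processing notes name HISAT2, HTSeq, FastQC and the build mm10. Tool versions, annotation, strand setting and the rule that selected the listed genes were not given in the sources. If strand was ignored, a gene and its opposite-strand neighbour share reads where they overlap. If the listed genes were selected on the genotype difference, as the gap in fold changes near 0 would come from, scaling rests on genes that differ, and adjustment over them counts too few tests. The series' design gives 3 mice per genotype.

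The matched genes and the other lists were chosen with earlier results of these data known. The grouping into roles and complexes was set after values were seen. The edgeR 4.0.16 quasi-likelihood test (R 4.3.3, limma 3.58.1) was fitted on all 6 libraries with genotype as the only term, TMM scaling and the default filter (minimum count 10, minimum total count 15), which left 4118 of 4162 genes. Benjamini-Hochberg adjustment ran over these. Standard errors were derived from the log2 fold change and its F statistic. Alternatives were RLE, upper-quartile and gap-centred scaling, DESeq2 1.42.0, no filter, adjustment over 21900 protein-coding genes, a replicate block and each library left out. The test and the search for the emptiest point, in windows of 0.2 on the log2 scale, were tested on simulated data.

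Named genes are, per role, up to 3 called with the largest rise and 3 with the largest fall among those with separate groups and an average log2 CPM of at least 2, the most abundant gene, a fixed panel, and up to 3 called genes with the smallest p per list. The remaining matched genes are named for completeness, except 1 that is counted in the totals but not reported here. Gene models, lengths and 50-base words are from GENCODE M21 (GRCm38), where all 67 symbols matched. Shared words and opposite-strand overlap are given for some genes only. Promoter windows are from RefSeq. These run 50 bases past the start, and for 47 of the 50 genes with a window the last 20 of those bases, in at least 1 window, were found in the gene's transcripts; the part before the start was searched and printed.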

Additional observations from a re-analysis of the deposited data

How the results depend on the processing

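The number of genes called lower, 23, became 14 under RLE, 11 under upper-quartile and 53 under gap-centred scaling. For all tested genes 1111 became 838, 725 and 1806 under these scalings. With each of the 21900 protein-coding genes counted as a test, 0 were higher and 1 was lower, where all tested genes gave 630 and 296. The numbers higher and lower were 6 and 16 with DESeq2, and 5 and 24 without the filter. All tested genes gave 1762 and 906 with DESeq2, and 1714 and 1139 without the filter. With 1 library left out, 0 to 6 genes were higher and 1 to 43 lower, and the median lay between -0.31 and -0.19. Of 28 calls, 27 were lost without WT replicate 1, 27 without WT replicate 2 and 21 without WT replicate 3, against 2, 0 and 5 without UTX TCD replicates 1, 2 and 3. The cause was not tested. Same-numbered libraries of the genotypes did not deviate together throughout (r = 0.28, -0.28 and 0.18 over genes for numbers 1, 2 and 3), so the numbers were not taken as pairs. With the replicate block 5 genes were higher and 21 lower, at a median of -0.27, where all tested genes gave 1607 and 1026.

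Lower genes of the termination and recycling list numbered 2 with RLE, 1 under upper-quartile, 11 under gap-centred scaling, 2 with DESeq2 and 0 with all protein-coding genes as tests, when 1 was higher. Those of the other tRNA modification enzymes numbered 6, 5, 20, 7 and 0, and those of tRNA processing 3, 2 and 14 with the scalings and 0 with all genes as tests, when 0 were higher. The mTORC1 list had 5 lower genes with gap-centred scaling and 0 with all genes as tests. With all genes as tests, 0 mitochondrial factors were lower and 0 stress response genes higher. With 1 library left out, the higher and lower genes were 1 to 3 and 0 to 11 for termination, 0 and 0 to 4 for mitochondrial factors, 1 and 0 to 15 for modification enzymes, 0 to 2 and 0 to 12 for processing, 3 to 4 and 0 to 5 for mTORC1, and 0 to 4 and 0 to 2 for the stress response.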
